A study of Mus musculus with 6 samples.

Results

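Ush1c, Epn3, Wdr72, Fndc5, Phf24, Ybx2 and Tmem35a are genes with very large falls in fetal mouse ventricles with a heart-directed knockout of estrogen-related receptors. They are 7 of the 19245 gene symbols in the deposited table and 12 of its 30031 transcript rows. They were chosen because their RNA was far lower in the knockout than in the control libraries and because none belongs to oxidative metabolism. Their fall is therefore the criterion of choice, and it is given below as a description without a test. RNA was sequenced from both ventricles of C57BL/6 embryos at embryonic day 17.5, in 3 control and 3 knockout libraries of 2 pooled hearts each. All embryos carried floxed alleles of Esrra and Esrrg, the genes of estrogen-related receptor alpha and of its gamma relative. The control embryos had no Cre recombinase, and the knockout embryos carried Cre under the Nkx2-5 promoter, which is active in cardiac progenitors and their descendants. Effects of Cre itself and of the deletions cannot be told apart, since no control carried Cre.

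Estrogen-related receptors are orphan nuclear receptors that bind DNA at the sequence TNAAGGTCA and, with PGC-1 coactivators, switch on genes of mitochondrial energy conversion in heart and muscle. The 7 genes are better known from other tissues. Ush1c encodes harmonin, a PDZ scaffold of the stereocilia of inner ear hair cells and of the intestinal brush border. Epn3 encodes epsin 3, an adaptor of clathrin-mediated endocytosis known from epithelia. Wdr72 encodes a WD repeat protein of vesicle traffic whose loss disturbs tooth enamel. Fndc5 encodes the membrane precursor of the secreted peptide irisin. Phf24, also called GINIP, and Tmem35a, also called NACHO, act in neurons: the first binds inhibitory G proteins and the second is a chaperone of nicotinic acetylcholine receptors. Ybx2 encodes a Y-box protein that packages stored mRNA in germ cells.

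RefSeq promoter windows were found for 5 of the 7 genes, and the 250 bases before the start site used by most of each gene's counts are shown because these genes fell together. Capitals mark AAGGTCA, the core of the receptor's binding sequence, and GGGCGG, the binding sequence of Sp family factors, on either strand. The windows are chr7:46238491-46238740 on the minus strand for Ush1c, chr4:129136749-129136998 for Fndc5, chr4:42916993-42917242 for Phf24, chr11:69936078-69936327 for Ybx2 and chrX:134294975-134295224 for Tmem35a, the last 4 on the plus strand of GRCm38, which is the mm10 build.
Ush1c: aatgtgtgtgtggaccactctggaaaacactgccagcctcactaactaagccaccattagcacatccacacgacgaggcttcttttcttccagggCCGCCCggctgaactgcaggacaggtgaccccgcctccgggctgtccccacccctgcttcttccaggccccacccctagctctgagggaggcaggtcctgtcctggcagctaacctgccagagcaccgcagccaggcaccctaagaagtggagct
Fndc5: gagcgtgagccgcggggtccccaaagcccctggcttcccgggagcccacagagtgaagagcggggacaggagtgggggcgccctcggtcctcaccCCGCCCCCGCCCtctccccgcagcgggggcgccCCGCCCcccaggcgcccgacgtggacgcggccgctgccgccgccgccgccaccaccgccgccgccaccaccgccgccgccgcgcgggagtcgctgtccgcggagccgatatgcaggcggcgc
Phf24: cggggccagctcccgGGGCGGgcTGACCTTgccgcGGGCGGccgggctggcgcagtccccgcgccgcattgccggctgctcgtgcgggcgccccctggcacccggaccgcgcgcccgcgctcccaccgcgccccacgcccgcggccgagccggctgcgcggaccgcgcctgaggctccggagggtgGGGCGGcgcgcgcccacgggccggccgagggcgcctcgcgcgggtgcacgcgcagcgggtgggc
Ybx2: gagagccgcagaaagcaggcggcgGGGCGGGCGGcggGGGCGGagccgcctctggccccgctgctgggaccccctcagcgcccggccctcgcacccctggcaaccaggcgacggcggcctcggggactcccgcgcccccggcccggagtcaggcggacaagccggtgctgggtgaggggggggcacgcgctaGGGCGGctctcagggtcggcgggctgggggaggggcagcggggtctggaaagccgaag
Tmem35a: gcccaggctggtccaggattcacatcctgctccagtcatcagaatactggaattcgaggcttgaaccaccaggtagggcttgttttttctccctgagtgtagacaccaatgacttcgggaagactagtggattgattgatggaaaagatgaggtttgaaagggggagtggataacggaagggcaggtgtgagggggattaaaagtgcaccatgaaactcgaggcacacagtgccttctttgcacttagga

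The full sequence TNAAGGTCA was in none of the windows of these 5 genes, searched on both strands from 250 bases before to 50 after each start site, and it was in 1.28% of all 32817 promoter windows. Its core AAGGTCA, which is contained in the full sequence, was found once, as TGACCTT on the opposite strand 227 bases before the Phf24 start, and 4.72% of all windows held it. GGGCGG was found in the windows shown for Ush1c, Fndc5, Phf24 and Ybx2 and not in that of Tmem35a, while 35.6% of all windows held it. Phf24 and Ybx2 each have a further window at another start site, and neither of these held it. TATAAA was in none of the windows of the 5 genes and in 13.6% of all windows. Promoters of tested genes held these motifs in other shares: in the 250 bases before the start, GGGCGG was in 56.0% of the 13915 promoters of tested genes against 32.7% of all, and TATAAA in 6.8% against 12.4%. TNAAGGTCA was in 0.647% against 1.14% and AAGGTCA in 2.83% against 4.08%. Base composition set the windows apart from each other. G and C made up 80.8% of the Fndc5 window, 85.6% of the Phf24 window and 79.2% of the Ybx2 window. They made up 61.2% for Ush1c and 49.6% for Tmem35a. The median of all windows was 52.4%, and a median over promoters of tested genes was not taken. In GENCODE M21 the Ybx2 window lies inside the gene and overlaps the first coding exon of a longer isoform. The Phf24 window lies inside a longer Phf24 transcript, outside its exons, the Fndc5 window overlaps an exon of Gm15906 on the same strand, and the Ush1c window overlaps the first exons of Ush1c transcripts at its end. A missing match says only that these letters are not in the window.

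Sequencing gave 39621555 to 86895519 reads a library, of which 12807218 to 32663845 were assigned to genes as estimated counts; knockout replicate 1 was the deepest. Levels are in CPM, the share of a library's counts, scaled by the trimmed mean of M-values (TMM). Of the targeted genes, Esrra fell, with 75.8 ± 6.56 CPM in the controls and 42.9 ± 1.63 CPM in the knockouts (± is the SD, n = 3 throughout), while Esrrg rose from 81.7 ± 2.07 to 115.6 ± 5.29 CPM, with adjusted p of 3.67e-07 and 2.22e-06 by edgeR. These counts include exons outside the floxed part and do not measure the loss of protein. Esrrb, the gene of the beta relative, was not targeted and rose from 13.0 ± 0.509 to 29.1 ± 1.72 CPM (adjusted p 4.62e-08 by edgeR). Because the RNA of Esrrg went against the label, every direction is that of the libraries labelled knockout. The share of reads between genes was 23.3% to 27.1% in the controls and 16.4% to 22.4% in the labelled knockouts, and this shift moved with genotype; its part in the results was not tested. Y-linked RNA was near 0 in control replicates 1 and 3 (0.0567 and 0.167 CPM of the raw total). Xist was near 0 in knockout replicate 1 (0.949 CPM). Those 3 pools thus each carried RNA of 1 sex, and the other 3 carried that of both. Control replicates 1 and 3 were female and knockout replicate 1 was male, so sex was not balanced between the groups.

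Ush1c was the deepest fall. It had 118, 85 and 128 counts in control replicates 1, 2 and 3 and 0 counts in each of the 3 labelled knockouts. The control libraries stood close together, at 6.84, 6.68 and 7.28 CPM. A count of 0 allows up to 3 counts over the labelled knockout group, or 0.0440 CPM, so Ush1c was at least 158-fold lower and at most 0.634% of its control level was left; this bound covers counting error only. Its fitted fold change is no bound, because with every knockout library at 0 its size depends on the prior count. The gene lies on mm10 chromosome 7 at 46195351 to 46238490 on the minus strand. The deposited table splits it into 4 transcripts that share 1 start site, and all 4 were at 0 in each labelled knockout. In the controls they took 19.3% to 31.8% of the gene's counts, a division that rests on estimation because their exons largely coincide.

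Epn3 kept a trace of RNA. Its counts were 678, 431 and 604 in the control libraries, against 29, 14 and 16 after knockout. On the CPM scale this was 39.3, 33.9 and 34.4 against 0.865, 0.938 and 0.811. The groups were far apart and each was narrow, with 35.8 ± 3.0 against 0.871 ± 0.0638 CPM, so that 2.43% of the control level was left. Epn3 has 1 transcript in the table (NM_027984, chromosome 11, 94489599 to 94499974, minus strand). Its log2 fold change was -5.36 (SE 0.121).

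Wdr72 was a low-count gene throughout. The controls had 182, 120 and 187 counts and the labelled knockouts 13, 6 and 9. In CPM the values were 10.5, 9.43 and 10.6 against 0.388, 0.402 and 0.456. The 3 labelled knockouts lay within 0.1 CPM of each other although each rests on few counts, and 4.07% of the control mean was left. The log2 fold change was -4.62 (SE 0.176), and -4.42 without the 3 libraries of 1 sex. Wdr72 spans 74110334 to 74283203 of chromosome 9 on the plus strand and has 1 transcript.

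Fndc5, the irisin precursor gene, was the most uneven of the 7. The controls had 49.2, 37.7 and 50.1 CPM and the labelled knockouts 4.89, 3.35 and 3.34 CPM, from 849, 480 and 881 against 164, 50 and 66 counts. Control replicate 2 stood below the other 2 controls and knockout replicate 1 above the other 2 knockouts, and the groups did not overlap. The mean went from 45.7 ± 6.90 to 3.86 ± 0.891 CPM, or 8.45% of control, with a log2 fold change of -3.50 (SE 0.143). Without knockout replicate 1 the log2 fold change was -3.77. The single transcript lies on chromosome 4 at 129136999 to 129144593, plus strand.

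Both genes with neuronal roles kept more of their RNA than Epn3 or Wdr72. For Phf24 the controls stood at 22.2, 20.7 and 22.7 CPM, against 2.38, 3.21 and 2.18 CPM after knockout. For Tmem35a they stood at 35.8, 35.5 and 38.0 CPM, against 4.74, 4.89 and 4.36 CPM. Tmem35a was thus the most even of the 7 in the controls, with a coefficient of variation of 3.74%, and it kept 73 to 159 counts a library. The share left was 11.9% for Phf24 and 12.8% for Tmem35a, with log2 fold changes of -3.12 (SE 0.119) and -2.97 (SE 0.0786). Phf24 lies at 42917243 to 42944750 of chromosome 4 and Tmem35a at 134295225 to 134305969 of the X chromosome, both on the plus strand. Tmem35a is the X-linked gene among the 7, and its log2 fold change was -2.95 without the libraries of 1 sex.

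Ybx2, the germ cell mRNA-binding protein gene, stood at 16.1, 13.0 and 15.4 CPM in the control libraries, against 1.79, 2.01 and 1.57 CPM after knockout. The groups did not overlap, and 12.1% of the control mean was left (log2 fold change -3.07, SE 0.136). Its counts were split unequally between 2 transcripts. NM_001347634, which starts at 69936328 of chromosome 11, took 95.4% of the control counts, with 259.3, 159.0 and 262.9 estimated counts in the control libraries, against 48.2, 30.0 and 23.5 after knockout. The upstream start at 69935899 (NM_016875) had at most 18.7 estimated counts in any library and took 4.58% of the control counts and 15.9% of those in the labelled knockouts; it was too low to be tested. Phf24 was also uneven between transcripts: NM_001346526 took 84.3% of its control counts and NM_172690 took 15.7%, and in the fit on transcripts their log2 fold changes were -2.97 (SE 0.169) and -4.03 (SE 0.503).

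**Figure D1:**
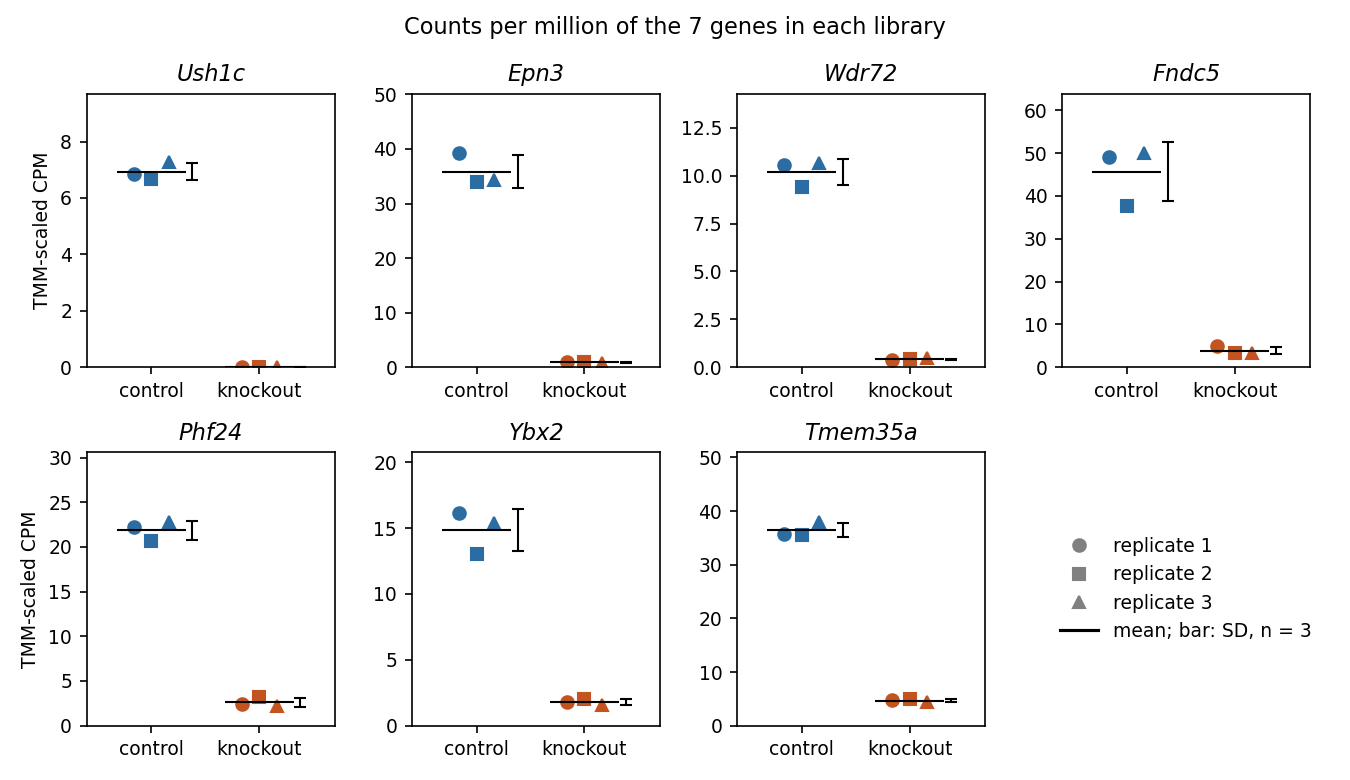
TMM-scaled CPM of the 7 genes in each library (vertical axis, linear from 0) by group, with symbols for replicates, a line for the mean and a bar for the SD of 3 libraries. Every labelled knockout library lies below every control library for each gene, Ush1c lies at 0 in the labelled knockouts, and control replicate 2 is the lowest control in each panel.

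Every labelled knockout library was below every control library for 7 of 7 genes; among all 14290 tested genes the groups were parted in this direction for 26.9%, and since the genes were chosen on this contrast nothing is read from their count. By fold change they stood at ranks 1, 2, 3, 6, 8, 9 and 10 from the bottom among the 12278 genes averaging 50 counts or more a library, so that 10 of these, 0.0814%, reached the fall of Tmem35a; with no limit on counts 22 of all 14290 tested genes did, 0.154%. For scale, 3.21% of all tested genes were at least 2-fold lower with an adjusted p under 0.05 by edgeR. The other 3 of the lowest 10 above that count limit were Rilp, an effector of Rab7 on late endosomes, at -3.63, Spp1, the osteopontin gene, at -3.56 from an uneven control group (9.10 ± 8.76 CPM) and Ampd3, an AMP deaminase, at -3.43 on the log2 scale. The choice had no stated limit of fold. Above the same count limit, just outside the least lowered of the 7, Tmem35a at -2.97, stood the mitochondrial creatine kinase gene Ckmt2 at -2.96 and the guidance factor gene Ntn1 at -2.78. In the authors' deposited table the ratio of knockout to wild type was 0.0242 for Epn3, 0.0406 for Wdr72, 0.0842 for Fndc5 and 0.128 for Tmem35a. For the transcripts that took most counts of Phf24 and Ybx2 the authors' deposited table gives 0.130 and 0.108.

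**Figure D2:**
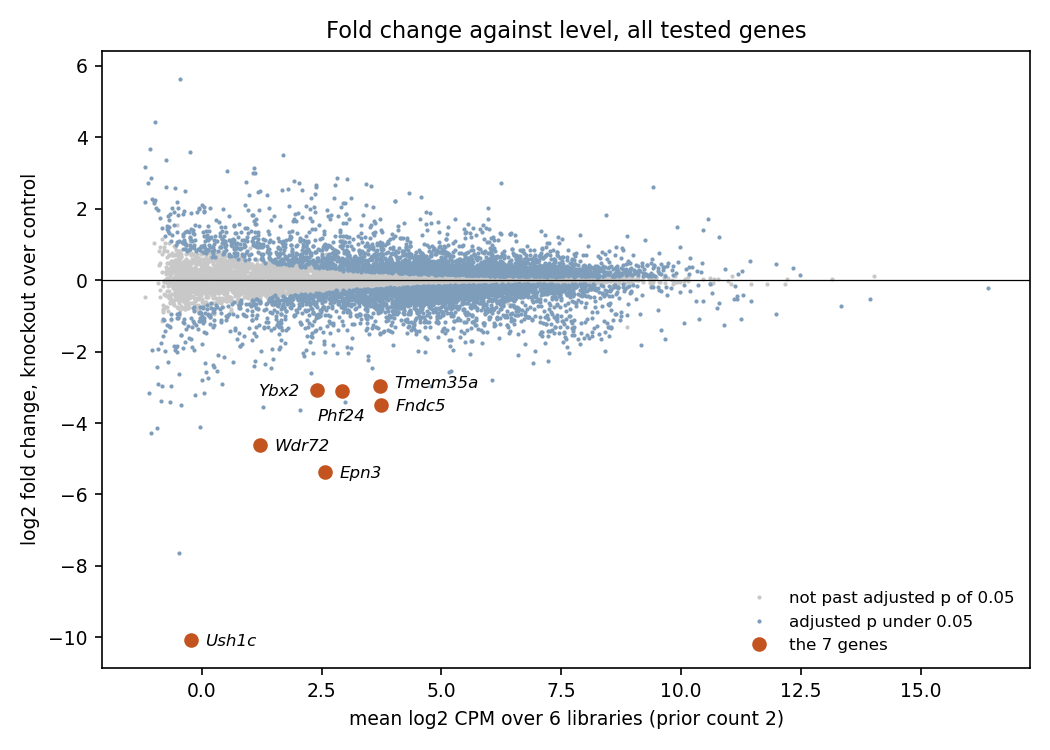
Log2 fold change of knockout over control (vertical axis) against mean log2 CPM over 6 libraries with a prior count of 2 (horizontal axis) for 14290 tested genes, with the 7 genes marked. Epn3 at -5.36 and Wdr72 at -4.62 stand below genes of a like level, while the position of Ush1c on the vertical axis depends on the prior count of the fit.

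Before their fall the 7 genes were of ordinary abundance. Compared per length, as the authors' RPKM summed over a gene's transcripts, control levels were 6.80 ± 0.356 for Tmem35a, 5.91 ± 0.842 for Fndc5, 3.90 ± 0.355 for Ybx2 and 3.30 ± 0.190 for Epn3. Lower in the controls stood Phf24 at 1.36 ± 0.0476 RPKM, Ush1c at 0.916 ± 0.0685 RPKM and Wdr72 at 0.700 ± 0.0411 RPKM. In that order Tmem35a and Fndc5 overlapped between libraries, as did Ybx2 and Epn3, and the other neighbours in the order did not. The median tested gene had 2.91 RPKM in the controls, and from 20.9% (Wdr72) to 75.5% (Tmem35a) of tested genes lay below each of the 7. In the labelled knockouts the order was Tmem35a at 0.967 ± 0.0675 RPKM, Fndc5 at 0.560 ± 0.155 RPKM, Ybx2 at 0.515 ± 0.0644 RPKM, Phf24 at 0.166 ± 0.0323 RPKM, Epn3 at 0.0891 ± 0.00586 RPKM, Wdr72 at 0.0316 ± 0.00261 RPKM and Ush1c at 0. Epn3 had thus moved from above Phf24 to below it.

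These genes are expressed outside the heart, so markers of other cells that the tissue could hold were read beside them. Summed over the list, 8 cardiomyocyte markers had 130390 to 135460 CPM in the controls and 104271 to 116529 CPM in the labelled knockouts. Of the 8, 7 fell by edgeR, against 22.0% of all tested genes. Most of the sum was Ttn, whose log2 fold change was -0.21. In bulk tissue, fewer cells of a type and less RNA per cell cannot be told apart. Neuron markers summed to 4.44 to 5.03 CPM in the controls and 5.07 to 6.26 CPM in the labelled knockouts, with 1 of 5 tested markers higher and 1 lower. Schwann cell markers stood at 16.3 to 19.3 and 16.7 to 17.6 CPM, with 1 of 4 lower. The epithelial list summed higher in the labelled knockouts, at 47.1 to 51.1 against 17.1 to 19.5 CPM. This rise was that of the keratins Krt8, Krt18 and Krt19 (3 of 3 tested). Cdh1 and Cldn4 did not rise with them, had at most 0.455 CPM in any library and were not tested. Epcam had at most 3 counts in each library. Of the brown fat list, summing to 3.93 to 5.35 CPM in the controls and 1.94 to 2.89 in the labelled knockouts, Cidea made up nearly all, and Ucp1, Adipoq, Elovl3 and Plin1 had at most 3 counts in each library. Skeletal muscle markers were at 1.62 to 2.27 and 4.05 to 5.07 CPM and lung markers at 1.41 to 2.10 and 1.27 to 1.72 CPM. The epicardial, fibroblast and macrophage lists summed higher in the labelled knockouts, with ranges that did not overlap. By edgeR 1, 5 and 2 of 5 genes each were called higher, against 22.4% of all tested genes. Of the epicardial list Wt1 alone was called, and Msln, at a log2 fold change of -0.19, did not pass. Endothelial markers went from 777.8 to 831.1 CPM in the controls to 681.2 to 710.9 CPM in the labelled knockouts. Of these 3 of 5 were lower and 1 higher, against 22.0% and 22.4% of all tested genes. None of the 5 erythroid markers passed the test. The part of these shifts in the fall of the 7 genes was not tested.

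The genes beside the 7 on the chromosome were not used to choose them and were tested. Among the 3 nearest tested genes on each side of each gene, 20 of 42 changed, 15 of them lower and 5 higher (47.6% changed and 35.7% lower). Over all 14290 tested genes 44.4% changed at an adjusted p under 0.05 by edgeR, with 22.0% lower and 22.4% higher. Scaled by library totals without TMM, 3984 genes were higher and 2631 lower, and 7 neighbours were higher and 14 lower. Gm1987 and Ccl21a beside Phf24 occupy the same interval and are both among the 15; counted once, 19 of 41 neighbours changed, 14 of them lower (46.3% and 34.1%). The share of neighbours changed in either direction was thus near the background. By direction it was not: 35.7% were lower against 22.0% of all tested genes, and 5 of 42 were higher against 22.4%. This difference in direction was not tested. Neighbours were also more abundant, with a median control level of 35.0 CPM against 22.7 CPM over all tested genes. Their median log2 fold change was -0.11 against 0.01 over all tested genes. No neighbour fell as far as any of the 7, and no gene of the table overlapped one of them.

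Around Ush1c, the genes Abcc8 and Kcnj11, which encode subunits of ATP-sensitive potassium channels, fell. Abcc8, the sulfonylurea receptor gene 15318 bases away, went from 44.5 ± 4.76 to 32.3 ± 3.28 CPM (adjusted p 0.000624 by edgeR), a call lost without the libraries of 1 sex (0.141). Kcnj11, the channel pore gene 94587 bases away, went from 44.9 ± 3.64 to 23.4 ± 1.11 CPM (adjusted p 2.19e-07 by edgeR). On the other side lies Otog, an inner ear matrix gene 2497 bases away, which stayed at 0.613 ± 0.219 and 0.597 ± 0.145 CPM and did not pass (adjusted p 0.896 by edgeR). Nomo1, of the endoplasmic reticulum membrane, rose from 66.2 ± 2.73 to 89.7 ± 3.92 CPM (adjusted p 1.21e-05 by edgeR).

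The steepest fall of a neighbour was beside Epn3. Mycbpap, 1373 bases away on the same strand, fell from 8.64 ± 0.787 to 2.22 ± 0.10 CPM (log2 fold change -1.97, SE 0.135, adjusted p 1.21e-07 by edgeR). The next gene on that side, Rsad1, fell from 21.3 ± 0.793 to 10.6 ± 0.253 CPM (adjusted p 2.10e-07 by edgeR). Thus 3 tested genes in a row, with Epn3, were lower in each labelled knockout than in any control. On its other side the calcium channel gene Cacna1g, 15401 bases away, had 65.9 ± 2.49 and 70.8 ± 3.75 CPM and did not pass (adjusted p 0.115 by edgeR).

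Beside Wdr72 and Fndc5 the picture was different. Unc13c, a gene of synaptic vesicle priming 176767 bases from Wdr72, rose from 38.9 ± 0.743 to 104.7 ± 3.11 CPM (log2 fold change 1.43, SE 0.0473, adjusted p 1.68e-10 by edgeR), and the nearest gene on the other side, Fam214a, did not pass (0.387). Next to Fndc5 neither S100pbp, 3409 bases away, at 51.4 ± 0.953 and 48.6 ± 2.66 CPM, nor Rnf19b, at 21.0 ± 0.749 and 20.7 ± 1.72 CPM, passed (adjusted p 0.275 and 0.916 by edgeR). Dnajb5, 8344 bases from Phf24, did not pass either, at 25.5 ± 1.13 and 25.0 ± 0.617 CPM (adjusted p 0.720 by edgeR). The nearest gene on the other side of Phf24, Gm1987, overlaps Ccl21a, so its values are uncertain. Both calls were lost in 5 of 14 alternatives, among them leaving out control replicate 2 or 3 or knockout replicate 1.

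Slc2a4, the insulin-responsive glucose transporter gene, ends 685 bases beyond Ybx2 on the opposite strand. It fell from 78.4 ± 4.14 to 61.8 ± 1.97 CPM (log2 fold change -0.35, SE 0.0516, adjusted p 0.000128 by edgeR), a far smaller step than that of Ybx2. Eif5a, a translation factor gene on the other side, rose from 187.6 ± 1.57 to 209.5 ± 6.82 CPM (adjusted p 0.00414 by edgeR), a call lost without the libraries of 1 sex (0.0649). Beside Tmem35a, Trmt2b, a methyltransferase gene of mitochondrial RNA, fell from 90.7 ± 3.58 to 54.2 ± 3.03 CPM (adjusted p 1.57e-07 by edgeR). Timm8a1, of mitochondrial protein import, lies 231287 bases away and fell from 36.3 ± 0.670 to 18.5 ± 0.375 CPM (adjusted p 3.16e-08 by edgeR). Cenpi, a centromere gene 2115 bases from Tmem35a, had 33.1 ± 3.44 and 31.1 ± 2.35 CPM and did not pass (adjusted p 0.374 by edgeR).

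**Figure D3:**
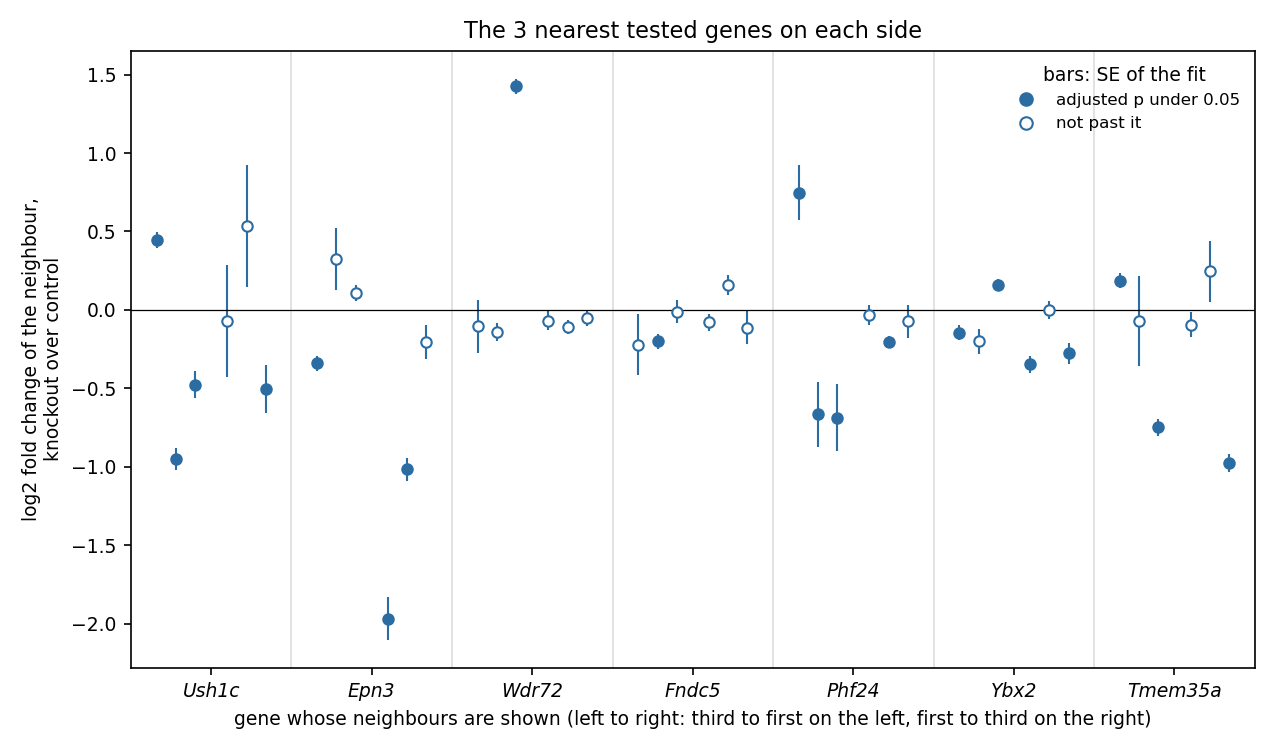
Log2 fold change of knockout over control with the SE of the fit (vertical axis) for the 3 nearest tested genes on each side of each of the 7 genes (horizontal axis), filled where the adjusted p was under 0.05. Mycbpap beside Epn3 is lowest at -1.97 and Unc13c beside Wdr72 highest at 1.43.

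The partners and relatives of the 7 proteins were read from 7 gene lists. Of 98 tested genes of these lists 62 changed, 43 higher and 19 lower (63.3% changed, 43.9% higher and 19.4% lower, against 44.4%, 22.4% and 22.0% of all tested genes by the same test). Listed genes were also more abundant, with a median control level of 45.9 CPM against 22.7 CPM over all tested genes. None fell as far as any of the 7.

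Harmonin works with the Usher proteins of the ear and the adhesion proteins of the brush border. Of 15 such genes 8 had enough counts to be tested, 3 rose and 1 fell. The brush border genes Cdhr2, Cdhr5, Anks4b and Myo7b had means of at most 0.0580 CPM in either group. Adgrv1, a giant adhesion receptor, rose from 2.07 ± 0.379 to 6.58 ± 1.10 CPM (adjusted p 8.26e-06 by edgeR). The motor gene Myo7a rose from 25.6 ± 2.98 to 35.1 ± 2.65 CPM (0.000815) and the calcium-binding Cib2 from 0.871 ± 0.322 to 1.98 ± 0.289 CPM (0.00485). Whrn, which encodes the harmonin relative whirlin, fell from 4.6 ± 0.112 to 3.42 ± 0.526 CPM (0.0256), but that call was lost in 7 of 14 alternatives (0.0593 to 0.298), among them leaving out each control and knockout replicate 1 or 3.

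Relatives of Epn3 moved little and in both directions. Of 24 tested genes of clathrin-coat endocytosis 10 rose and 5 fell. Epn1, the broadly expressed epsin, fell from 95.0 ± 11.3 to 72.0 ± 0.992 CPM (adjusted p 0.000395 by edgeR), and Epn2 had 48.0 ± 1.35 and 46.8 ± 1.46 CPM and did not pass (0.570). The huntingtin-interacting genes went apart, with Hip1 from 148.6 ± 9.62 to 231.1 ± 4.43 CPM (2.07e-07) and Hip1r from 40.7 ± 2.54 to 28.0 ± 0.886 CPM (1.18e-05). The clathrin heavy chain Cltc rose from 702.9 ± 13.3 to 906.8 ± 6.11 CPM (1.16e-05). By log2 fold change the list ran from -0.55 for Hip1r to 0.64 for Hip1, whereas Epn3 stood at -5.36.

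Wdr72 has a paralog, Wdr7, a subunit of the rabconnectin complex that acts on the vacuolar proton pump. Wdr7 rose from 56.3 ± 2.57 to 72.2 ± 1.26 CPM (adjusted p 6.55e-05 by edgeR). Of 24 tested genes of the complex and the pump 10 rose and 6 fell. Its partner Dmxl2 rose from 111.5 ± 8.74 to 172.9 ± 5.18 CPM (8.00e-07) and Dmxl1 fell from 236.4 ± 5.2 to 202.2 ± 5.68 CPM (0.000367). The pump subunit Atp6v0e2 rose from 6.75 ± 0.422 to 18.6 ± 0.863 CPM (3.27e-08), while Atp6v0e fell from 33.7 ± 0.457 to 26.3 ± 1.48 CPM (0.000436).

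Around Fndc5, 7 of 9 tested genes rose and none fell. The integrin subunits reported as an irisin receptor both rose, Itgav from 113.7 ± 6.67 to 261.3 ± 22.9 CPM (adjusted p 8.28e-09 by edgeR) and Itgb5 from 137.0 ± 8.76 to 218.9 ± 4.51 CPM (1.28e-07). Fndc3c1, of the same domain family, rose from 0.923 ± 0.259 to 10.3 ± 0.584 CPM (6.62e-09). Ppargc1a, the PGC-1 gene known to raise Fndc5 in skeletal muscle, was among the risers, at 286.3 ± 27.0 and 433.6 ± 27.7 CPM (1.02e-05).

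For Phf24, 6 of 11 tested genes of inhibitory G proteins and GABA-B receptors rose and 2 fell. The receptor subunit Gabbr1 rose from 21.5 ± 0.833 to 32.3 ± 2.16 CPM (adjusted p 1.44e-05 by edgeR) and the channel Kcnj3, which such G proteins open, from 26.6 ± 2.24 to 43.3 ± 2.65 CPM (4.64e-06). The G protein subunit Gnai1 fell from 37.3 ± 1.84 to 31.7 ± 0.832 CPM (0.00486), a call lost without the libraries of 1 sex (0.109), and Kctd8, at 1.81 ± 0.194 and 1.17 ± 0.304 CPM (0.0386), lost its call in 7 of 14 alternatives (0.0548 to 0.608), among them leaving out each control and knockout replicate 1 or 2.

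Of 12 tested genes related to Ybx2 6 rose and 3 fell. Csdc2, of the same cold shock domain family, rose from 2.71 ± 0.536 to 4.13 ± 0.283 CPM (adjusted p 0.00808 by edgeR), a call lost without control replicate 1 (0.0502) and without the libraries of 1 sex (0.489). Its broadly expressed paralogs Ybx1 and Ybx3 fell from 440.8 ± 10.7 to 385.1 ± 12.8 CPM (adjusted p 0.00216 by edgeR) and from 153.3 ± 7.14 to 132.6 ± 6.91 CPM (0.00326). Both calls were lost without the libraries of 1 sex (0.101 and 0.321). Nicotinic receptor genes, the clients of Tmem35a, were scarce. Of the 24 genes of this list, which also holds receptor modulators and other related genes, 10 could be tested, 1 rose and 2 fell. None of the 4 receptor subunits tested passed. Chrna7, the best known client, had 0.0717 ± 0.0795 CPM in the controls and 0.282 ± 0.109 CPM in the labelled knockouts and was not tested. The receptor modulator Lynx1 fell from 58.1 ± 4.28 to 27.3 ± 2.90 CPM (adjusted p 1.82e-07 by edgeR) and Ly6e from 35.0 ± 2.34 to 25.3 ± 1.65 CPM (0.000116), while Lypd6 rose from 1.88 ± 0.304 to 3.92 ± 0.544 CPM (0.000445), a call lost without the libraries of 1 sex (0.0897).

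**Figure D4:**
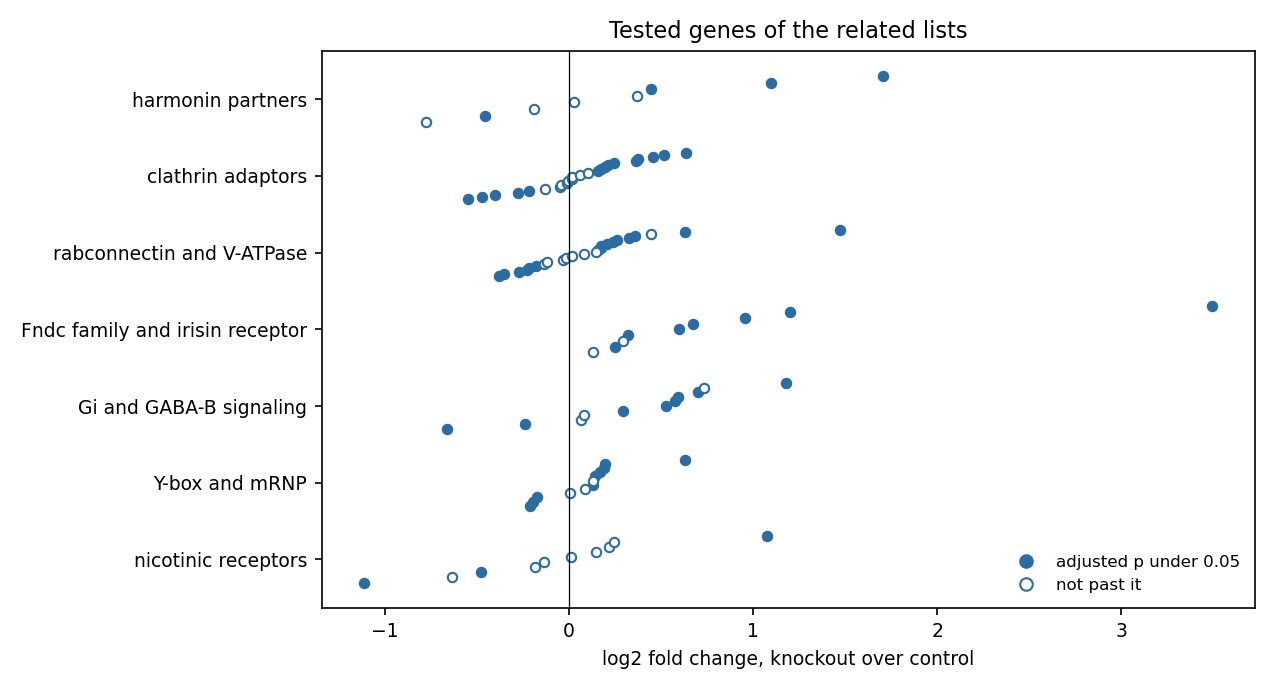
Log2 fold change of knockout over control (horizontal axis) of the tested genes of the 7 related lists (rows; height within a row only spreads the points by rank), filled where the adjusted p was under 0.05. Nearly all points lie between -1 and 2, and Fndc3c1 is farthest right at 3.49.

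The 5 other genes whose profile over the 6 libraries was nearest to the median profile of the 7, by Euclidean distance of log2 CPM centred on the control mean, were Ampd3 (distance 0.623), Rilp (0.713), Sall4 (0.971), Pipox (0.983) and Gtsf1 (1.20). Ampd3 had 25.5 ± 0.524 CPM in the controls and 2.38 ± 0.137 CPM in the labelled knockouts. Sall4, a pluripotency factor gene, and Gtsf1, a germ cell piRNA gene, were near the counting floor in the labelled knockouts, with 1 to 10 and 3 to 6 counts. Among the 7 themselves, Fndc5 was nearest to their median at 0.213, and Ush1c was farthest at 4.43.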

How the data were processed

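Libraries were stranded, from total RNA depleted of rRNA, and read as single 50 bp reads, per the labels' protocols, which also name another TruSeq kit. TopHat2 2.0, Partek 6.6, DESeq and mm10 appear in the submitters' processing notes, with no roles; how counting used strand is unknown here, and reads of a gene and its antisense partner cannot be told apart. The authors deposited estimated counts per transcript (51.0% to 53.2% not whole), RPKM values, which recompute from the counts within 0.1%, and a fold, p-value and FDR of their own comparison. Deposited read counts per library and percent of reads by region were copied.

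Counts were summed per gene symbol and rounded. Before this, missing, date-like or numeric symbols of 58 transcript rows were restored from accessions. The test was edgeR 4.0.16 (R 4.3.3), the two-sided quasi-likelihood test with TMM scaling; filterByExpr (minimum count 10, minimum total 15) left 14290 genes, over which p was adjusted by Benjamini-Hochberg and called under 0.05. P-values weigh the difference between the groups against the spread of the pools within the groups. Adjusted p-values printed alone in parentheses come from this test. CPM uses the library sizes over tested genes with TMM factors. The log2 CPM profiles used a prior count of 2. Floors are 3 counts; without molecular identifiers reads are not single molecules, so floors cover counting error alone. Ends of genes are 1 base below the deposited value. Promoter sequences are RefSeq's, build GRCm38.p6, and gene features GENCODE M21.

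The 7 genes and the lists were chosen with earlier results of these data known. The rule named all 7, the receptor genes, per list up to 3 changed genes in each direction, the nearest tested gene on each side and up to 2 further changed neighbours, the 5 nearest profiles, and genes lowered as far; the text names a part of these. Ppargc1a, Wdr7, Epn2, Chrna7 and 4 brush border genes were named after their values were seen. Abundance-matched comparisons were not made. Alternatives were other scalings, no filter, DESeq2 1.42.0, limma-voom (limma 3.58.1), robust dispersion, a replicate block, another prior count, transcripts, leaving out each library and leaving out the libraries of 1 sex.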

Additional observations from a re-analysis of the deposited data

How the results depend on the processing

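Over 14 alternatives the log2 fold changes of the chosen genes lay within -5.40 to -5.28 for Epn3, -4.69 to -4.42 for Wdr72, -3.77 to -3.40 for Fndc5, -3.25 to -2.97 for Phf24, -3.14 to -2.88 for Ybx2 and -2.99 to -2.92 for Tmem35a. These ranges leave out the other prior count and the fits on transcripts. In the latter the less abundant Phf24 transcript stood at -4.03, its main transcript at -2.97 and the main Ybx2 transcript at -3.23. The fitted value of Ush1c went from -10.07 to -8.23 with limma-voom and to -6.09 with a prior count of 2. That prior count also gave -5.22 for Epn3 and -4.33 for Wdr72. Without the libraries of 1 sex, which leaves 1 control library assumed to vary like the others, 3645 genes changed (1787 higher, 1858 lower), as did 40 related genes (10 lower) and 11 neighbours (3 higher, 8 lower); the fit has 3 libraries in place of 6. Taking the nearest gene on each side alone, 7 of 14 changed. With a replicate block 6410 genes changed against 6348 without. Deviations of same-numbered libraries correlated at -0.00552, -0.0152 and 0.104, and not every library was nearest to its own number. Correlations this weak, from 3 libraries a group, cannot tell whether same-numbered libraries share a litter or batch. The main test treated them as unpaired. DESeq2 called 5262. With library totals in place of TMM, 46 related genes were higher and 18 lower. Counting the overlapping pair Gm1987 and Ccl21a once was chosen after seeing the data. In the 250 bases before the start alone, 1.14% of windows held TNAAGGTCA, 4.08% AAGGTCA, 32.7% GGGCGG and 12.4% TATAAA. Where 0 to 13 counts were left, as for Ush1c and Wdr72, depth limits the fold.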

Other observations

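Control replicate 2 was the lowest of the 3 controls for 7 of the 7 genes, by little for Ush1c (6.68 against 6.84 and 7.28 CPM) and by more for Fndc5 (37.7 against 49.2 and 50.1 CPM). It was the lowest control for 37.2% of all tested genes, and for 61.0% of the other 451 genes that were at least 2-fold lower in the labelled knockouts. Esrra had 82.0, 68.9 and 76.4 CPM in control replicates 1, 2 and 3, so its RNA was also lowest in replicate 2. That library was the shallowest, with 12807218 counts, and the one control pool with both Y-linked RNA (112.2 CPM of the raw total) and Xist (1170 CPM). The part of depth or sex in this order was not tested.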
